A study of Homo sapiens with 2 samples.

Results

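The peaks described here lie in introns. They are the ChIP-seq peaks for which every gene-feature entry of the deposited annotation reads intron, so that no promoter, untranslated region or exon was assigned to them. Of the 1900 peaks in the deposited list, 474 met this description. A further step removed 22 of these because they sat in dense clusters, in which at least 5 peaks follow each other at gaps of at most 100000 bp, and 452 peaks on 23 chromosomes remained. They were divided by the distance between the peak midpoint and the start of the nearest gene named in the deposited table. The 151 peaks within 2000 bp are called near-start peaks and the 301 farther away are called distal peaks. The members were chosen by the peak calls and the positions of 1 comparison of ChIP with input, so pileup, fold enrichment and q-value, all taken from that comparison, are given as descriptions without a test.

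The cells were CAL27, an established line from a human tongue carcinoma, kept with 10% serum in DMEM/F12 medium by the labels and in DMEM by the study's methods. All cells had received a lentivirus carrying KLF7 with a myc tag, in the input as in the ChIP. The data held 1 library precipitated with an anti-MYC antibody (D3N8F) and 1 input library made without antibody, and neither had a replicate. An antibody to MYC can also meet the MYC protein that the cells make themselves, and cells lacking myc-KLF7 were not analysed here, so tagged KLF7 and the cells' own MYC cannot be told apart as the source of a peak.

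KLF7 is a zinc finger transcription factor of the Krüppel-like family, whose members bind GC-rich and CACCC-type boxes. MYC binds DNA together with its partner MAX, at the E-box and, less tightly, at variants of it. Introns carry a large share of the enhancers of a gene, and the first intron often extends the open, CpG-rich region of the promoter, so intronic peaks can mark either kind of element. AP-1 factors, dimers of FOS and JUN family proteins, are prominent at enhancers of squamous epithelial cells, together with TEAD and RUNX factors.

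A few kinds of sequence recurred at these peaks, and examples are printed because the results below turn on them. Each window holds the summit and 50 bases on either side, read 5′ to 3′ on the plus strand of GRCh38. The first windows are near-start peaks with an E-box, and capitals mark the E-box CACGTG, which reads the same on both strands.
PPIA at chr7:44797023-44797123: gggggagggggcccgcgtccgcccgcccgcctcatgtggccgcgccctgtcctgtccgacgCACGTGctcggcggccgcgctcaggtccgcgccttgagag
PPRC1 at chr10:102133654-102133754: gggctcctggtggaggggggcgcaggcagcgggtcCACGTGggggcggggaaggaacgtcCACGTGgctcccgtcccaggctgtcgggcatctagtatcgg
NR1D1 at chr17:40099092-40099192: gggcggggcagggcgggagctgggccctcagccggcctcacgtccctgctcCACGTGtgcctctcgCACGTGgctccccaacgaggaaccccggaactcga
The next windows are distal peaks with an E-box, marked in the same way. The windows of NCL, PPRC1 and NR1D1 hold more than 1 copy.
NCL at chr2:231463767-231463867: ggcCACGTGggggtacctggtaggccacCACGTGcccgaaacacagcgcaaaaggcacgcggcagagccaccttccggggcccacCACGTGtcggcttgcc
NRP2 at chr2:205685918-205686018: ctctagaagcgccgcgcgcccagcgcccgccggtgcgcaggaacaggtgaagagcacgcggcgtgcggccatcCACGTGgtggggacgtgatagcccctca
BAG3 at chr10:119668031-119668131: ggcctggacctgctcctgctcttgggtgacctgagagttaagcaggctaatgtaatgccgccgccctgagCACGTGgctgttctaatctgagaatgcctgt
MOV10L1 at chr22:50149147-50149247: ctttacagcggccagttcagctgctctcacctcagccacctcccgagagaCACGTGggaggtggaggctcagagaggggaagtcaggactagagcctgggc
The following distal windows have the AP-1-type site TGANTCA, in which N is any base, in capitals. Each of them also holds catgtg, the other-strand reading of the E-box variant CACATG, left in lower case.
SGSM2 at chr17:2359726-2359826: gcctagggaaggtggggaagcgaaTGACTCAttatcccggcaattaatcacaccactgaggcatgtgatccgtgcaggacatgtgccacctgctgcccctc
CD58 at chr1:116556784-116556884: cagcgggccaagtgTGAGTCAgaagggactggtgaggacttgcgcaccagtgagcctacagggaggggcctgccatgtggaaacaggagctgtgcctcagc
LDLRAD3 at chr11:36019869-36019969: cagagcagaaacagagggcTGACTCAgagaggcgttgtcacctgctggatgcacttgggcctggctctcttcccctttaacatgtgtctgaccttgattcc
Near-start windows without an E-box but with the GC box GGGCGG, in capitals, are shown for ATF4 and RAN.
ATF4 at chr22:39521004-39521104: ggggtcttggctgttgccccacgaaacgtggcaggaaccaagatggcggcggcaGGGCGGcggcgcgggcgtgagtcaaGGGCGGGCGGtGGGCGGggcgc
RAN at chr12:130872623-130872723: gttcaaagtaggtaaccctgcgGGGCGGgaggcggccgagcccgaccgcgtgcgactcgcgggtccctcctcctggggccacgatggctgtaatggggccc
The distal window with the highest fold enrichment held a CA run, a repeat of at least 8 CA or TG units, also in capitals.
RLF at chr1:40200839-40200939: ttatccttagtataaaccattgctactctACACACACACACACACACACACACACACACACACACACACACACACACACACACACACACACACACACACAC

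Near-start and distal peaks had like medians of enrichment. The pileup counts the ChIP fragments that cover a summit, and the fold enrichment is its ratio to the local background rate, with 1 added to both. The background rates given below were calculated back from these deposited values. The median fold enrichment was 5.19 in near-start peaks (middle 50% of peaks 4.58 to 6.33) and 5.19 in distal peaks (4.67 to 5.97). The median pileup was 13 fragments near a start and 12 away from it. Fold enrichment reached 5 in 86 of 151 near-start peaks (57.0%) and in 176 of 301 distal peaks (58.5%), beside 52.5% of all 1900 peaks. A q-value under 0.001 was given to 117 near-start peaks (77.5%) and 234 distal peaks (77.7%), beside 81.7% of all peaks. A typical peak rested on few fragments. A pileup of 12, for example that of NR4A2, the gene of a nuclear receptor, had an exact Poisson interval of 6.20 to 21, which covers counting error alone, and with a single pair of libraries no value has a replicate.

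**Figure D1:**
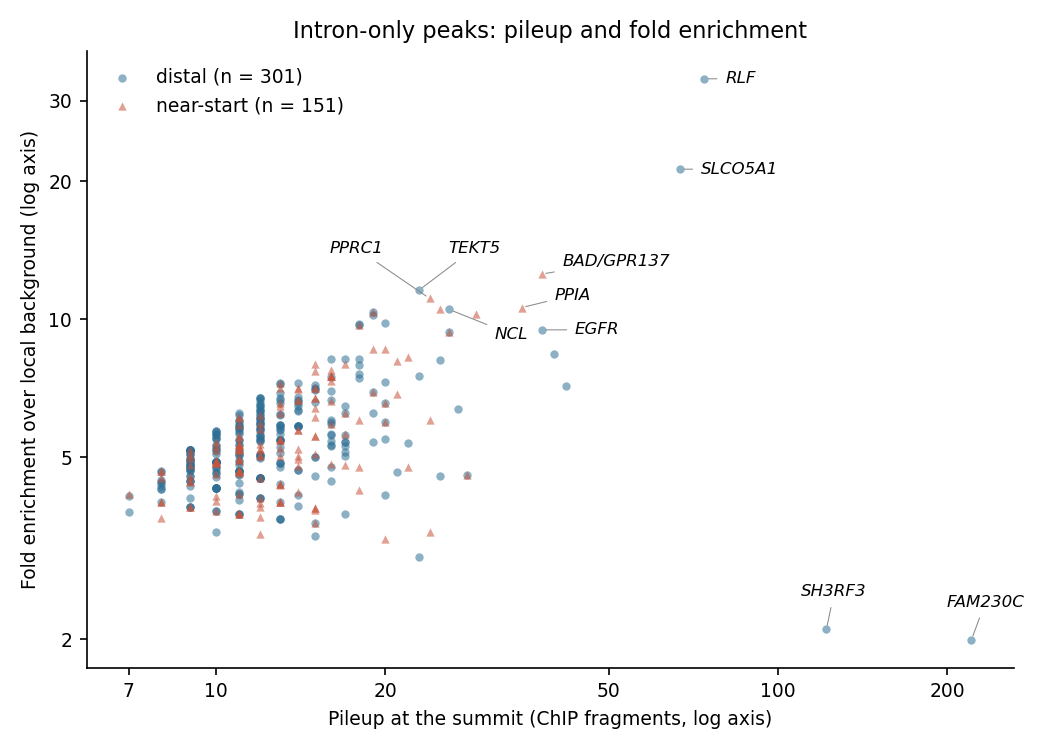
Pileup at the summit (x axis, ChIP fragments, log axis) against fold enrichment over the local background (y axis, log axis) for the 151 near-start peaks (triangles) and the 301 distal peaks (circles), each point 1 peak. Both groups fill the same cloud, while the distal peaks in RLF and SLCO5A1 lie above it at 33.5-fold and 21.3-fold and those in FAM230C and SH3RF3 lie to the right of it at 221 and 122 fragments but close to 2-fold.

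Among the 12 near-start peaks with the highest −log10 q, those in PPIA, RAD23B, PPRC1, ATF4, TXN and NR1D1 lay in intron 1 of the canonical transcript. The peak in intron 1 of PPIA, which encodes cyclophilin A, a protein-folding enzyme, spanned chr7:44796879-44797466 with a pileup of 35 fragments (95% Poisson interval 24.4 to 48.7), an enrichment of 10.6-fold and a −log10 q-value of 24. RAD23B, a factor of nucleotide excision repair, had 29 fragments at the summit and 10.3-fold enrichment in its intron 1. PPRC1, a coactivator of genes for mitochondria, had 24 fragments at the summit and 11.1-fold enrichment. These values stood well above the middle of the group. The peak of ATF4, the transcription factor of the integrated stress response, had 26 fragments at the summit and 9.36-fold enrichment. RAN, the GTPase that drives nuclear transport, reached 9.70-fold at a pileup of 18. YTHDF2, a reader of methylated adenosine in mRNA, reached 8.62-fold at a pileup of 20. The redox protein gene TXN and the circadian repressor gene NR1D1 completed this set, at 8.11-fold and 8.63-fold. All of these peaks were free of repeated sequence or nearly so, with at most 0.73% of their 31-base words found elsewhere in the genome.

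The near-start peak with the highest −log10 q, 29.5, lay in introns of both BAD, a protein that promotes cell death, and GPR137. It had 38 fragments at the summit and 12.6-fold enrichment, held a CA run, and 78.7% of its 31-base words occurred more than once in the genome. The long non-coding RNA gene AC106706.1, with 25 fragments at the summit and 10.5-fold enrichment, also had a CA run, with 73.8% of words repeated. A further pair of strong near-start peaks lay in non-coding or little-studied genes. ANKRD30BL had 19 fragments at the summit and 10.4-fold enrichment, and AL158152.2 had 22 fragments at the summit and 8.28-fold enrichment. Repeated words made up 31.25% of the ANKRD30BL peak and 0% of the AL158152.2 peak. At the low end, the peak shared by VEPH1 and PTX3, the gene of a secreted pattern recognition protein, had a fold enrichment of 3.31. That in IQCG and RPL35A, a ribosomal protein gene, had 3.40. Neither had an E-box, a GC box or an AP-1-type site within 100 bp of its summit.

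The strongest distal peaks included several in repeated sequence. RLF, the gene of a zinc finger protein, led all 452 peaks in fold enrichment with 33.5, at a pileup of 74 (95% Poisson interval 58.1 to 92.9) in intron 4 of 7. The second was in SLCO5A1, a gene of the organic anion transporter family, with 67 fragments at the summit and 21.3-fold enrichment. The RLF window is the CA run printed above, and 92.9% of the words in the SLCO5A1 peak were repeated. PRKAR1B, a regulatory subunit of protein kinase A, and HFM1, a helicase of meiosis, had fold enrichments of 8.38 and 7.14, and in both peaks all 31-base words occurred elsewhere as well. TEKT5, a tektin of sperm tails, at 11.6-fold, and CSMD1, which encodes a large membrane protein, at 9.36-fold, again held CA runs. Of the 12 distal peaks with the highest −log10 q, 3 had a CA run and 4 consisted mostly of repeated words, beside 2 and 2 of the 12 near-start peaks. Reads from such sequence may be hard to assign to 1 place, and how the reads mapped was not examined.

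Of the other distal peaks among the 12, those in EGFR, NCL, MARCH8, LARP1 and NRP2 held no repeated words. EGFR, the receptor tyrosine kinase amplified or raised in many squamous carcinomas, had a peak deep in its intron 1 of 122920 bp, at chr7:55073931-55074316 and 55103 bp downstream of the gene start. Its pileup was 38 (95% Poisson interval 26.9 to 52.2), its fold enrichment 9.48 and its −log10 q 23.4, and the local background rate there was 3.11 fragments. NCL, which encodes nucleolin, the main protein of the nucleolus that binds pre-ribosomal RNA, had 26 fragments at the summit and 10.5-fold enrichment. The membrane ubiquitin ligase gene MARCH8 reached 10.4-fold at a pileup of 19. LARP1, which binds the mRNAs of ribosomal proteins, reached 10.2-fold at a pileup of 19, and NRP2, a co-receptor of semaphorins and VEGF, 9.83-fold at a pileup of 20. Fold enrichment and pileup could part company. FAM230C, a long non-coding RNA gene, had the highest pileup, 221, over a background rate of 110.2, and hence the lowest fold enrichment, 2.0, and 90.1% of its words were repeated. SH3RF3 was second lowest with a pileup of 122 and 2.1-fold, and 95.3% of its words were repeated.

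**Figure D2:**
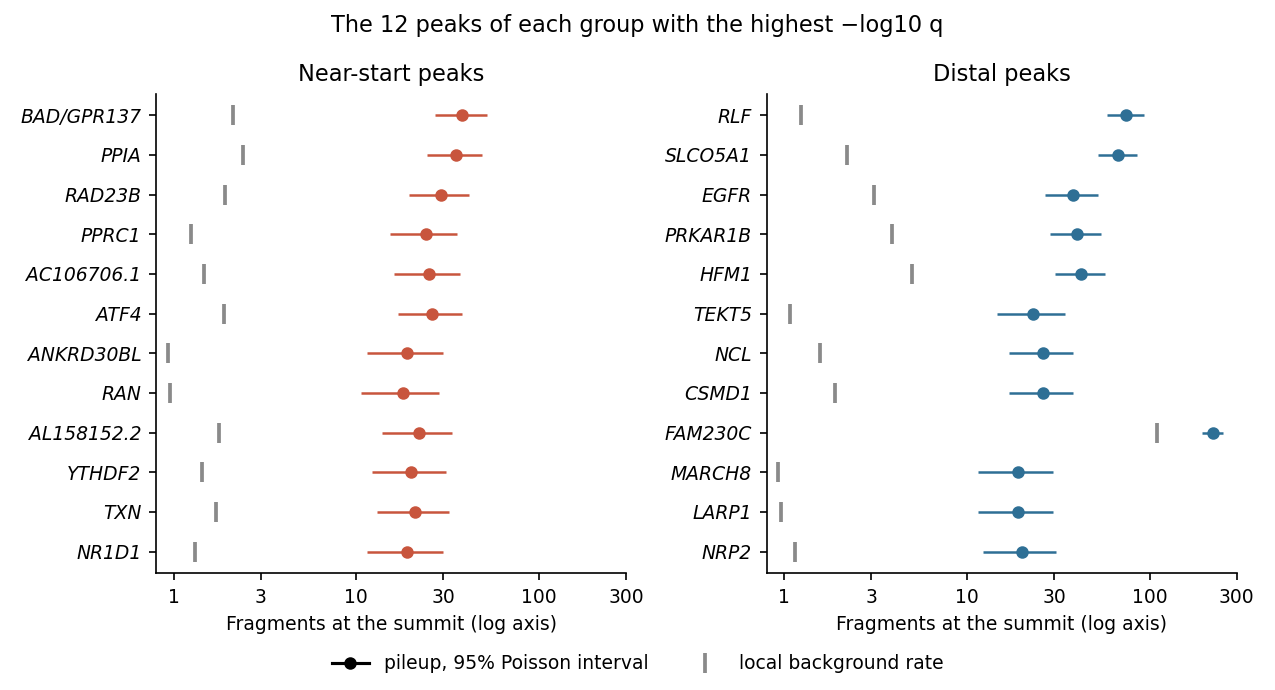
Pileup at the summit (points, with 95% exact Poisson intervals) and local background rate (grey ticks) in fragments on a log axis, for the 12 near-start (left) and 12 distal (right) peaks with the highest −log10 q, named by host gene. Near-start pileups run from 18 in RAN to 38 in BAD/GPR137, the distal group reaches 74 in RLF, and the FAM230C peak alone stands on a background above 100 fragments.

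The position relative to the host gene separated the groups, as the distance rule and the exclusion of promoter entries imply for part of it. Of the near-start peaks, 148 of 151 lay downstream of the gene start, and for 138 (91.4%) the host gene was also the nearest gene. For distal peaks this held for 114 of 301 (37.9%). In GENCODE v44, 113 near-start peaks (74.8%, 95% Wilson interval 67.4 to 81.1%) were in intron 1 of the canonical transcript of a host gene, beside 93 distal peaks (30.9%, 25.9 to 36.3%). The introns were longer around distal peaks, with a median of 14817 bp against 3791 bp. The word intron also depended on the annotation. The summits of 46 near-start peaks (30.5%) and 37 distal peaks (12.3%) overlapped an exon of some GENCODE v44 transcript, among them those of PPIA, ATF4, RAN, YTHDF2 and NCL.

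A distal peak was not always far from a transcript start. The deposited annotation measured the distance to 1 nearest gene, and 124 of 301 distal summits (41.2%, 35.8 to 46.8%) were within 2000 bp of the start of some GENCODE v44 transcript, 86 of them of a protein-coding one. For 27 of the 124, the canonical start of the GENCODE host gene itself lay within 2000 bp. The NCL summit, assigned to the small nucleolar RNA gene SNORD82 at −3420 bp, was 124 bp from a start of NCL itself. The summits in LARP1 and NRP2 were 382 and 175 bp from a start of their own host genes, and the stronger peak in MNT, a bHLH repressor that pairs with MAX, was 58 bp from the start of an MNT transcript without a defined coding sequence. The other 177 distal peaks had no start within 2000 bp. Their median distance was 7969 bp, and the farthest was 126321 bp away.

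Base composition differed with this distance. The median GC content of the 201-bp window around the summit was 70.1% in near-start peaks, 66.7% in the 124 distal peaks beside a transcript start and 54.7% in the other 177. A CpG-island-like window, with at least 50% GC and an observed-to-expected CpG ratio of at least 0.6, was found in 124 of 151 near-start peaks (82.1%), in 68 of 124 distal peaks beside a start (54.8%) and in 15 of 177 away from one (8.47%). Promoter peaks outside clusters stood at 87.1%.

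**Figure D3:**
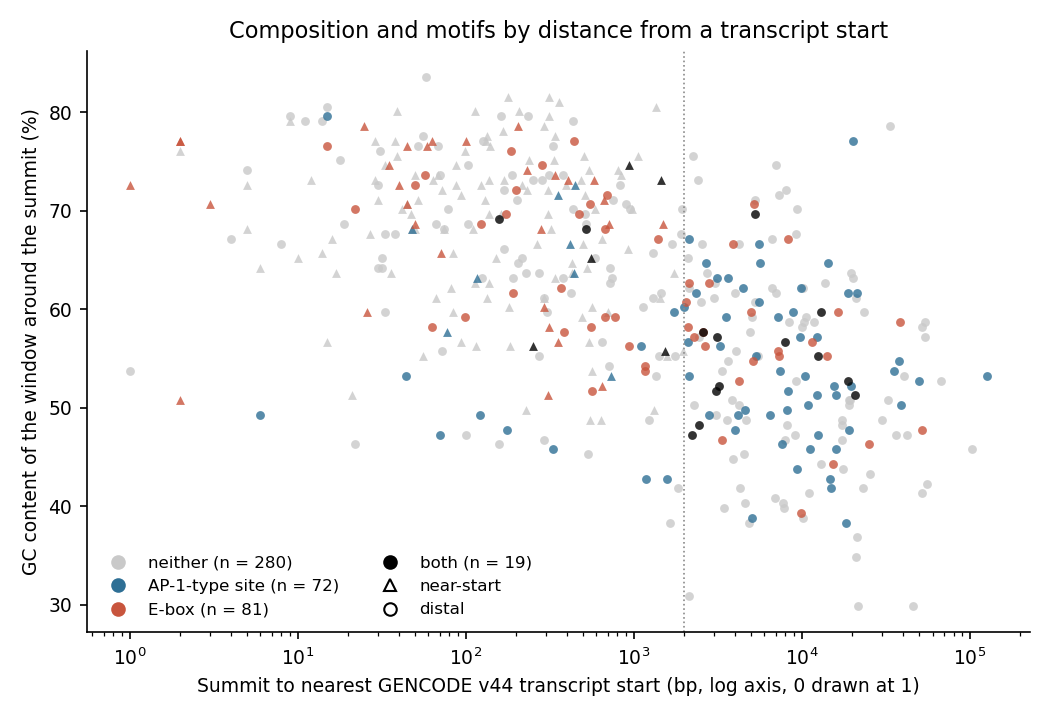
Distance from the summit to the nearest GENCODE v44 transcript start (x axis, bp, log axis, dotted line at 2000 bp) against GC content of the 201-bp window (y axis, %) for 452 peaks, near-start peaks as triangles and distal peaks as circles. Peaks with an E-box (81, red) are spread over the whole range of distances, whereas most peaks with an AP-1-type site (72, blue) lie to the right of the line at lower GC content, 19 peaks have both (black) and 280 have neither (grey).

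The E-box CACGTG was present in both groups. It was found within 100 bp of the summit in 35 of 151 near-start peaks (23.2%, 95% Wilson interval 17.2 to 30.5%) and in 65 of 301 distal peaks (21.6%, 17.3 to 26.6%). The odds ratio was 1.10 with a 95% interval of 0.687 to 1.75, and the two-sided Fisher's exact test gave an adjusted p of 0.935 over 13 motifs, so a difference was not detectable among these peaks, and the interval leaves room for odds between 0.687 and 1.75. Both shares were above those of introns at large. Of all 201-bp intron tiles of GENCODE v44, 2.22% within 2000 bp of a gene start and 1.8% farther away held an E-box, and tiles of the same GC content as the peaks held one in 3.93% and 3.75%. The peaks were thus 5.89-fold and 5.76-fold above tiles of matching GC content. CACGTG contains a CpG, and the tiles were not matched for CpG content. Among 35116 promoter windows of 300 bp, longer than the 201 bp used here, 7.26% held an E-box. In the 177 distal peaks away from any start the share was 20.3% (15.1 to 26.9%). By distance from the nearest gene start, distal peaks held an E-box in 19 of 63 (30.2%, 20.2 to 42.4%) up to 5000 bp, in 10 of 56 (17.9%) from there to 10000 bp, in 31 of 142 (21.8%) to 50000 bp and in 5 of 40 (12.5%, 5.46 to 26.1%) beyond. These intervals overlap, and the bins were not tested.

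Some peaks held several copies of the E-box. ZZZ3, a subunit of a histone acetyltransferase complex, had 4 copies within 100 bp of its summit, with a pileup of 14 and 5.04-fold enrichment. NCL and PPRC1 had 3 copies each. With 2 copies followed YBX1, a cold-shock-domain protein that binds mRNA, at 7.09-fold, U2AF2, a splicing factor, at 5.25-fold, and NR1D1. In NR1D1, the nearer copy was centred 3.5 bp from the summit. The lipid regulator gene SREBF1 had 1 copy at 6.73-fold, and FOSL1, an AP-1 subunit, 1 copy at 4.8-fold. Among distal peaks, the co-chaperone gene BAG3 had 1 copy 22.5 bp from the summit at 6.98-fold, MOV10L1, an RNA helicase, 1 copy 2.5 bp from it at 7.09-fold, and IGF1R, the receptor of insulin-like growth factor, 2 copies at 5.78-fold. These genes were picked after their values were seen. The median fold enrichment with an E-box was 5.30 against 5.13 without one in near-start peaks. The base next to CACGTG was C at 46 of 92 flanks in near-start peaks and at 57 of 144 in distal peaks (39.6%). G followed, at 26.1% and 28.5% of flanks. The windows are rich in GC, and these shares were not compared with an expected share.

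Unlike the E-box, the GC box was more frequent near a start. GGGCGG, a binding sequence of SP and KLF factors searched on both strands, was found in 94 of 151 near-start windows (62.3%, 54.3 to 69.6%) and in 105 of 301 distal windows (34.9%, 29.7 to 40.4%), with an odds ratio of 3.08 (2.05 to 4.62; adjusted p = 5.94e-07, Fisher's exact test). ATF4 had 5 copies within 100 bp, PPIA and NR1D1 had 4 each, and among distal windows NCL had 2. Over bins of 5 percentage points of GC content, the odds ratio fell to 1.07 (0.645 to 1.79, Mantel-Haenszel estimate), an interval that includes 1, so at equal GC content no difference was detectable. Intron tiles with the GC content of the peaks held a GC box in 48.7% and 21.3%, so the peaks exceeded them 1.28-fold and 1.64-fold. The longer form GGGGCGGGG, which contains the GC box, was in 13.9% of near-start and 9.30% of distal windows (adjusted p = 0.279, Fisher's exact test). The CACCC-type box CCACCC, the core of many KLF sites, was in 29.1% and 29.9% (odds ratio 0.964, 0.628 to 1.48), below the 39.6% and 32.3% of tiles with the same GC content.

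The AP-1-type site showed the opposite pattern. TGANTCA was in 13 of 151 near-start windows (8.61%, 5.10 to 14.2%) and in 78 of 301 distal windows (25.9%, 21.3 to 31.1%), with an odds ratio of 0.269 (0.144 to 0.503; adjusted p = 4.24e-05, Fisher's exact test). Over bins of GC content the odds ratio was 0.478 (0.242 to 0.945, Mantel-Haenszel estimate). The distance from any transcript start set the groups further apart. The site was in 13 of 124 distal peaks beside a transcript start (10.5%, 6.23 to 17.1%) and in 65 of 177 away from one (36.7%, 29.97 to 44%), where tiles of the same GC content held it in 4.72%, a ratio of 7.78. The other groups were above such tiles as well. The tiles held it in 2.28% for near-start peaks, a ratio of 3.78, and in 2.81% for distal peaks beside a start, a ratio of 3.73. Most sites were TGAGTCA, the preferred AP-1 sequence, which 53 of the 177 windows held (29.9%), while TGAATCA was in 17 (9.60%). With near-start redefined by any transcript start, the odds ratio was 0.180 (0.108 to 0.299, unadjusted p = 3.68e-12, Fisher's exact test). This setting was chosen for TGANTCA after seeing the data. The forms TGAGTCA and TGAATCA were added after the shares had been seen and carry no test.

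Distal peaks with the AP-1-type site and no start within 2000 bp included EGFR, SGSM2, CD58, BOC, NEK6 and LDLRAD3. In EGFR, the site was 76 bp from the summit. SGSM2, a regulator of small GTPases, had 17 fragments at the summit and 8.19-fold enrichment, with the site 23 bp from the summit. The peak in CD58, the adhesion ligand of CD2 on T cells, had 20 fragments at the summit and 5.98-fold enrichment, and that in LDLRAD3, a member of the LDL receptor family, had 28 fragments and 4.58-fold enrichment. The co-receptor gene BOC of the Hedgehog pathway reached 6.94-fold and the mitotic kinase gene NEK6 6.57-fold. Some windows held both an E-box and an AP-1-type site. Of the 301 distal windows, 14 held both, 51 an E-box alone of the pair, 64 an AP-1-type site alone and 172 neither. The median fold enrichment was 5.55 with an E-box alone, 5.17 with an AP-1-type site alone, 5.19 with neither and 5.03 with both.

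**Figure D4:**
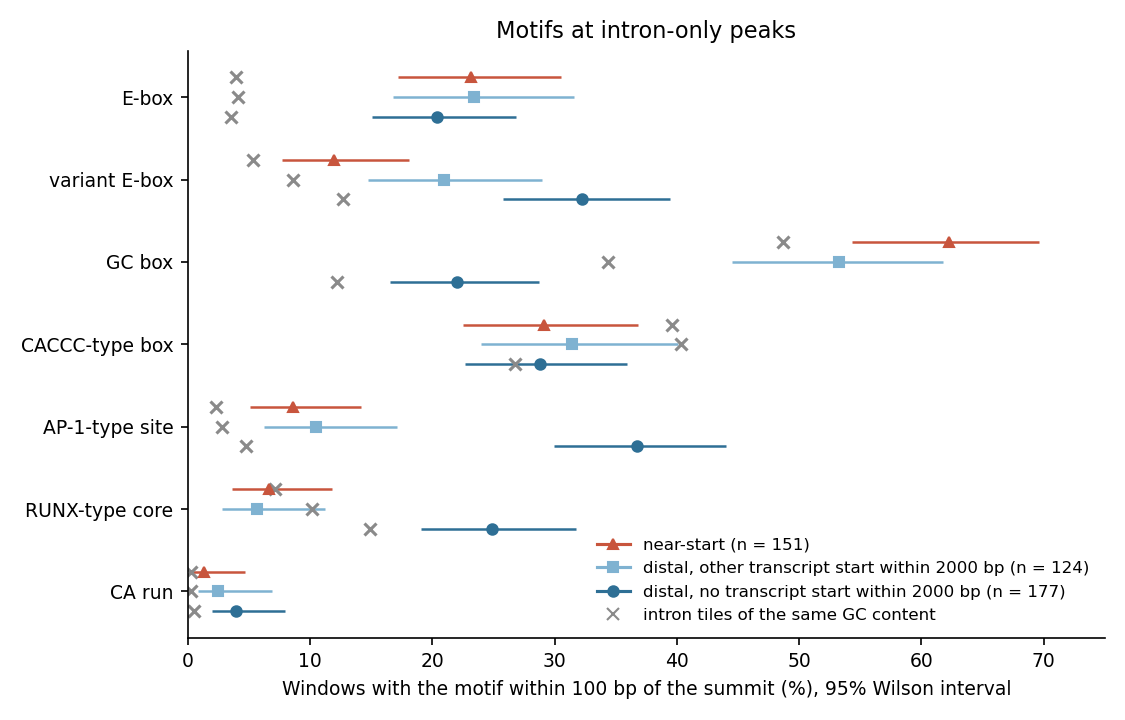
Share of windows with each motif within 100 bp of the summit (x axis, %, points with 95% Wilson intervals) in 151 near-start peaks, 124 distal peaks within 2000 bp of any transcript start, that of the host included, and 177 distal peaks with no start within 2000 bp, and in intron tiles of the same GC content (grey crosses). For both distal groups these tiles lay more than 2000 bp from a gene start. The E-box stands at 20.3 to 23.4% in all 3 groups, the GC box falls from 62.3% to 22%, and the AP-1-type site rises from 8.61% to 36.7%.

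The place of the motif within the window also differed between motifs. In the 61 distal windows with exactly 1 E-box, its centre lay a median of 25.5 bp from the summit, and 29 were within 25 bp, whereas a motif placed evenly over the window would have a median of 48.75 bp. In the 27 near-start windows with 1 E-box, the median was 43.5 bp. The variant E-box CACATG also lay closer to the summit than an even spread in distal peaks, with a median of 31.5 bp over 66 windows and 31 within 25 bp. The AP-1-type site had a median of 49.5 bp over 66 distal windows and 14 within 25 bp. GC boxes had a median of 46.0 bp in both groups.

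**Figure D5:**
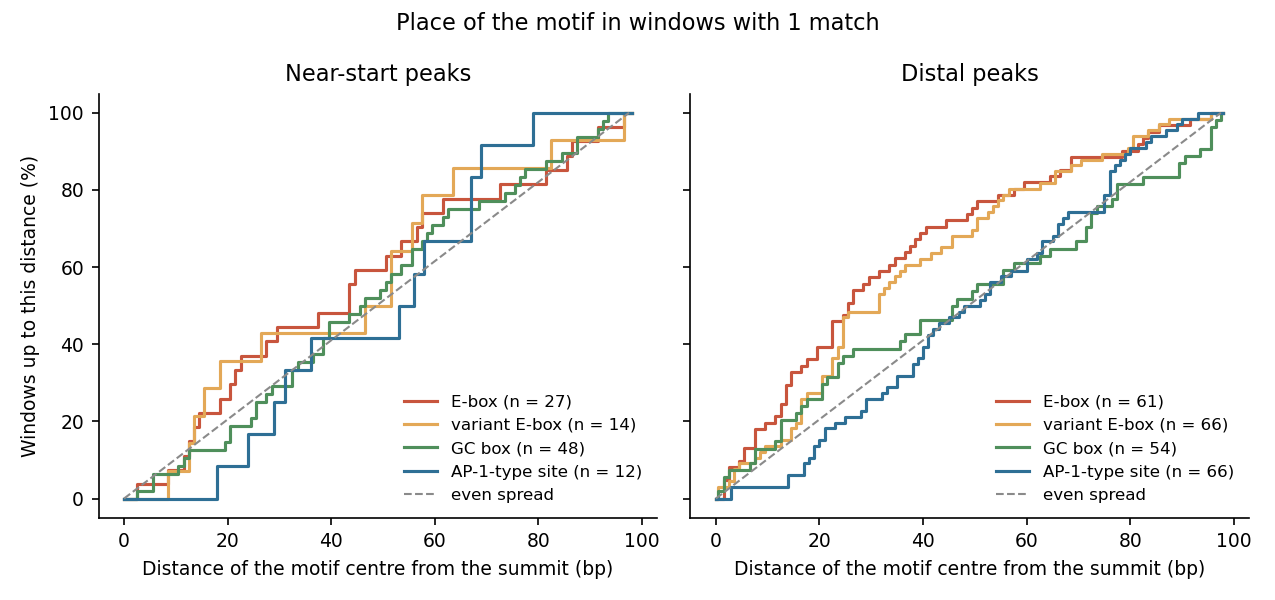
Cumulative share of windows (y axis, %) with the motif centre up to a given distance from the summit (x axis, bp), for windows with exactly 1 match in near-start (left) and distal peaks (right); the dashed line is an even spread. In distal peaks the E-box (61 windows) and its variant (66) rise above the line near the summit, while the AP-1-type site (66) and the GC box (54) stay close to it.

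The shares of the E-box variants CACATG and CACGCG differed between the groups in opposite directions. CACATG was in 18 near-start windows (11.9%) and 83 distal windows (27.6%), above the 5.29% and 11% of tiles with the same GC content. CACGCG, which contains CpG pairs, was in 38 near-start (25.2%) and 42 distal windows, where such tiles had 9.53% and 3.09%. Counting an E-box or CACATG, 48 near-start (31.8%) and 135 distal windows (44.9%) had at least 1 of these sequences. Both variants were added after the E-box shares had been seen and carry no test.

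For RUNX factors, which shape epithelial enhancers, TGTGGT was in 10 near-start (6.62%) and 51 distal windows (16.9%), with an odds ratio of 0.348 (0.171 to 0.706; adjusted p = 0.00892, Fisher's exact test). Tiles with the same GC content also differed, with 7.14% for near-start and 12.9% for distal peaks, and no odds ratio over bins of GC content was computed for this motif. Within the distal peaks it was in 5.65% of those beside a transcript start and 24.9% of those away from one. Intron tiles more than 2000 bp from a gene start, weighted to the GC content of each set, had 10.1% and 14.9%. The TEAD sequence GGAATG was in 9.27% and 14.3% (adjusted p = 0.279, Fisher's exact test). The ETS sequence CCGGAAG was in 4.64% and 2.99%, the CCAAT box in 6.62% and 11.6%, and the NRF1-type sequence TGCGCA in 10.6% and 5.65%, none of which passed (adjusted p from 0.257 to 0.608). The cAMP-response element TGACGTCA and the CTCF consensus were each in 1 distal peak. CA runs were in 2 near-start and 10 distal windows (adjusted p = 0.573, Fisher's exact test), and 3 of the 5 highest fold enrichments among all 452 peaks had one. Of 13 motifs, 3 therefore passed between near-start and distal peaks, namely the GC box, the AP-1-type site and the RUNX-type core.

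The intronic peaks were also set against the classes of peaks most like them. Near-start peaks and 543 promoter peaks outside clusters had an E-box in 23.2% and 27.4% (odds ratio 0.798, 0.523 to 1.22; adjusted p = 0.566, Fisher's exact test) and a GC box in 62.3% and 68.3% (adjusted p = 0.471). The ETS sequence was rarer in near-start peaks, 4.64% against 13.4% (adjusted p = 0.0143, Fisher's exact test), as was the CCAAT box, 6.62% against 16.2% (adjusted p = 0.0143). Distal peaks exceeded the 332 intergenic peaks for 7 of 13 motifs, among them the E-box (21.6% against 10.2%, adjusted p = 2.88e-04) and the AP-1-type site (25.9% against 12%, adjusted p = 3.06e-05, Fisher's exact test), and fell below them for GGAATG. When peaks made mostly of repeated words were left out of both groups, which left 278 distal and 128 intergenic peaks, 0 of 13 motifs passed by Fisher's exact test and 0 had an unadjusted p under 0.05. The E-box was then in 23% and 24.2%, the AP-1-type site in 27.3% and 30.5%.

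Annotated functions of the nearest genes were counted without a test. Of the near-start peaks, 119 had a nearest gene with a Gene Ontology entry in the deposited table, and of the distal peaks 116. RNA binding was listed for 26 of the 119 (21.8%) and 3 of the 116 (2.59%), beside 94 of 886 (10.6%) over all peaks with an entry. Cell cycle was listed for 19 (16%) and 3 (2.59%), beside 10.4% over all peaks, and nucleolus for 12 (10.1%) and 2 (1.72%), beside 8.80%. Protein kinase activity was listed for 5 near-start (4.20%) and 10 distal peaks (8.62%), beside 3.39% over all peaks, and synapse for 2 (1.68%) and 7 (6.03%), beside 2.14%. Mitochondrion was listed for 13 (10.9%) and 10 (8.62%), beside 14% over all peaks. Cell-cell junction was listed for 4 in each group, beside 2.48%, extracellular matrix for 2 and 3, beside 1.69%, and actin cytoskeleton for 2 and 4, beside 1.81%. These are counts of nearest genes, which are often not the host.

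The deposited transcription factor column named a family for 27 near-start peaks (17.9%) and 19 distal peaks (6.31%), beside 7.84% of all peaks and 11.2% of promoter peaks. The near-start set included ATF4, NR1D1, NFKBIA, SREBF1, FOSL1, NR4A2, ELK4, USF2 and TFAP4. NFKBIA, the inhibitor of NF-κB, had 16 fragments at the summit and 7.54-fold enrichment. USF2, itself an E-box-binding protein, had 3.75-fold without an E-box within 100 bp. The distal set included MNT, UHRF1, MAFK, KDM4B, HES2 and POU2F2. UHRF1, a reader of hemimethylated DNA, reached 6.75-fold, the histone demethylase gene KDM4B 6.17-fold with 2 E-boxes, and the bHLH repressor gene HES2 5.77-fold with an E-box 4.5 bp from the summit. The column also gave a zinc finger family to PPIB, which encodes cyclophilin B, and an ETS family to RPL27, a ribosomal protein gene.

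Intron-only peaks were looked up for a list of genes of epithelial identity, adhesion and stemness, with KLF7, MYC and MAX. Of that list, EGFR, WWTR1 and ITGA3 hosted intron-only peaks, and SFN, the 14-3-3 protein of keratinocytes, was the nearest gene of 2 peaks hosted by ZDHHC18. The intron-only peak of ITGB4 lay in a dense cluster and was dropped, and the other listed genes had none. The second EGFR peak, 90414 bp downstream of the canonical start of EGFR and 292 bp from another EGFR transcript start, had 16 fragments at the summit and 4.44-fold enrichment. WWTR1, the Hippo pathway coactivator TAZ, had 12 fragments at the summit and 4.07-fold enrichment at a CA run. ITGA3, an integrin subunit of the laminin receptor, had 10 fragments at the summit and 4.28-fold enrichment, with no E-box, GC box or AP-1-type site. The SFN-side peaks in ZDHHC18 lay at −13486 and −9778 bp from the start of SFN, with fold enrichments of 6.39 and 5.09. These values were near or below the median of distal peaks except for the first EGFR and the first ZDHHC18 peak.

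Several genes held more than 1 intron-only peak. There were 19 such gene names, and MAD1L1 and PLEC had 3 peaks each. The peaks of MAD1L1, a spindle checkpoint protein, had fold enrichments of 5.29, 5.58 and 5.61 and were spread over more than 100000 bp, the last of them in sequence of which all 31-base words occurred elsewhere, and those of PLEC, which links keratin filaments to hemidesmosomes, had 5.60, 4.63 and 4.8. In TFAP4, a bHLH factor that binds E-boxes, neighbouring peaks in the first 2000 bp had 7.51-fold and 5.48-fold, and the stronger held an E-box. NME2, a nucleoside diphosphate kinase, showed the same arrangement at 5.63-fold with 2 E-boxes and 5.55-fold with none. SLC29A2, a nucleoside transporter, had 6.03-fold and 3.78-fold, the latter over 6 GC boxes. In MNT, 2 distal peaks at 7.43-fold and 4.81-fold lay 7172 and 8370 bp from the canonical start, and 58 and 70 bp from starts of MNT transcripts without a defined coding sequence. NEK6 was the one gene with both kinds, a near-start peak at 4.94-fold with an E-box and a distal peak at 6.57-fold with an AP-1-type site. In ANO1, a calcium-activated chloride channel, and in AGO2, the nuclease of RNA interference, both peaks were distal and all 4 had an AP-1-type site.

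Peaks on either side of the distance limit had ordinary values. Just inside the limit of 2000 bp from the nearest gene start, which need not be that of the host, were BAZ2A, a chromatin remodelling subunit, at 1836 bp and 5.34-fold, PKP3, a desmosomal plakophilin, at 1907 bp and 4.88-fold, and the pair AC005899.4 and C17orf75 at 1970 bp and 4.97-fold. Just outside were MACROD1, a hydrolase of ADP-ribose, at −2016 bp and 3.59-fold, AP003356.1 at 2051 bp and 5.45-fold, and PER1, a core circadian clock gene, at 2061 bp and 6.60-fold. Of the 22 peaks dropped with dense clusters, 15 were mostly repeated sequence and 7 lay in groups of 5 or 6, and 15 of the retained peaks were in groups of 4. More than 50% of the words were repeated in 26 of the 452 retained peaks.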

How the data were processed

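ChIP-seq was measured in 1 anti-MYC ChIP library and 1 input library of CAL27 cells with myc-KLF7. The authors removed low-quality reads, mapped them, discarded duplicates and called peaks with MACS2 at a q-value threshold of 0.05. The submitters' processing notes name hg38, FastQC, Trimmomatic, BWA and ChIPseeker. The pileup is the signal the authors deposited, in fragments of the ChIP library that cover a summit. The deposited fold enrichment is the ratio of pileup to background, each plus 1. Significance was taken from the deposited −log10 q-value, and the deposited −log10 p was not used. The table has no read totals, so depth is known from the pileups alone. No column of per-sample values was left unmapped (0 such columns).

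Members and lists were chosen with earlier results of these data known. The members follow the deposited annotation, with peaks joined at gaps of at most 100000 bp and groups of at least 5 dropped. Motifs were searched on both strands within 100 bp of the summit in GRCh38, 13 fixed and 4 added after seeing the data, and in all non-overlapping 201-bp tiles of GENCODE v44 introns, standardised to the peaks' GC content in bins of 5 percentage points. Shares of peaks were compared by the two-sided Fisher's exact test with Benjamini-Hochberg adjustment over 13 motifs, with Wald intervals for odds ratios, and the comparison was tested on simulated data. Peaks of 1 library pair are not replicates, so these tests compare sequences under peaks, and Wilson and Poisson intervals (95%) cover counting error only. A word of 31 bases counted as repeated if it occurred more than once in the assembly without alternate contigs. The reference held upper-case letters, so masked repeats were not counted. Peaks named are the 12 with the highest −log10 q in each group, the 2 with the highest and lowest fold enrichment, the 3 nearest the distance limit on each side, those in or next to a listed gene, and genes with at least 2 peaks, with others named after their values were seen. Alternatives covered the distance limit, the gene start, the cluster rule, thresholds, repeated sequence, window and GC content. Computations used scipy 1.17.1, statsmodels 0.14.6 and numba 0.67.0 in Python 3.11.15, with matplotlib 3.10.9 for the plots.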

Additional observations from a re-analysis of the deposited data

How the results depend on the processing

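Over 16 results and 14 other settings, 132 of 163 values kept their side of the threshold or stayed within the interval of the reported value. The CACGTG odds ratio, 1.10 as reported and never past the threshold, fell below 1 without dropping clusters (0.982), without repeated sequence (0.997), in a window of 50 bp (0.971) and over bins of GC content (0.968). Over bins of GC content the GC box odds ratio was 1.07 and no longer passed. With distance taken from the nearest GENCODE transcript start, there were 275 near-start and 177 distal peaks, the distal GC box share was 22% and the distal TGANTCA share 36.7%. With a near limit of 1000 bp the near-start TGANTCA share was 5.04%. A q-value under 0.001 gave median fold enrichments of 5.48 and 5.55 in near-start and distal peaks, and a fold enrichment of at least 5 gave 6.09 and 5.85, with 86 and 176 peaks. Filtering on fold enrichment raises its median by construction, and the q-value comes from the same comparison. In a window of 50 bp, the near-start and distal shares were 15.2% and 15.6% for CACGTG, 41.7% and 23.9% for the GC box and 3.97% and 13.3% for TGANTCA. In a window of 200 bp they were 32.5% and 27.6% for CACGTG and 78.8% and 42.9% for the GC box, with a distal TGANTCA share of 37.2%. Over the whole peak the near-start CACGTG share was 31.8%, the near-start GC box share 70.9% and the distal TGANTCA share 32.9%. Wider windows hold more matches by construction. Without repeated sequence, 0 in place of 8 motifs passed between distal and intergenic peaks. The settings for TGANTCA and for repeated sequence in the last comparison were chosen after seeing the data. No paired analysis was possible because the groups share fewer than 2 replicate numbers. With 1 library of each kind no replicate could be left out, and at pileups near 12 fragments small differences between peaks cannot be told from counting error.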
